A study of Rattus norvegicus with 12 samples.

Results

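The genes described here are 10 markers of the endothelium, the cell layer that lines blood vessels: Sox18, Kdr, Flt1, Tek, Egfl7, Pecam1, Cldn5, Cdh5, Esam and Vwf. Their probe sets were every probe set on the array to which the platform annotation gives 1 gene symbol, that of a member. This gave 13 probe sets for 9 of the 10 genes, out of 31042 probe sets that name 14217 genes. Of the 13, 12 passed the filter on low signals and were tested among 18626 probe sets, and the one left out is a Kdr probe set, 1397868_at.

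Total RNA was taken from the calf muscle gastrocnemius of the denervated hindlimb in male rats of the Wistar-Hannover strain, after section of the left sciatic nerve. There were 4 groups of 3 arrays: nandrolone at day 35, vehicle at day 35, nandrolone at day 7 and vehicle at day 7. Nandrolone is an anabolic steroid that acts on the androgen receptor. Each group was dosed for 7 days before the muscle was taken, from day 29 after surgery in the day 35 groups and from the day of surgery in the day 7 groups. All 12 arrays are of denervated muscle, so a change from innervated muscle was not measured. The labels do not say whether the 3 arrays of a group come from separate rats, and p-values measure the spread between these arrays. Age and dose are not given in the sources used here.

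Endothelial cells form the capillaries that run between muscle fibres, and denervated muscle is known to lose capillaries over time. They are recognised by a small set of proteins: receptors for vascular growth factors, adhesion and junction proteins that seal cell to cell, secreted factors, and transcription factors of the SOX and ETS families that switch these genes on. In RNA from whole muscle, fewer cells of a type and less RNA per cell cannot be told apart.

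Values are log2 of the deposited signal after 16 was added, quantile normalized over the 12 arrays, and a level is compared only between arrays, never between probe sets. A change is a difference of group means on this scale, which understates the change of dim probe sets. Changes were tested with limma over all 18626 tested probe sets, and a probe set is called where the Benjamini-Hochberg adjusted p is under 0.05. Skeletal muscle fibre markers matched the labelled tissue: all 11 of the list were tested, and Myl1, Acta1 and Ckm had deposited signals of at least 14133 in every day 35 array. The median signal of an array was 44.8 to 63.5 in 11 arrays and 111 in nandrolone day 35 replicate 3. That array also had the lowest mean correlation with its own group, 0.937. Its actin probe sets gave the lowest ratio of 3' to 5' signal, at 1.90, against 2.08 to 3.71 in the other arrays. This ratio reads RNA integrity and rises as RNA degrades, so it is not a sign of poorer RNA in that array. Differences of the members that use the nandrolone day 35 group are given with and without it.

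No probe set of a member was called in any of the 5 comparisons with limma, with 12 arrays or with the 11 arrays without nandrolone day 35 replicate 3. The share of all tested probe sets called was 0% for nandrolone against vehicle at day 35, 0% for nandrolone against vehicle at day 7, 0.676% for day 35 against day 7 under nandrolone, 5.61% for day 35 against day 7 under vehicle, and 0% for the interaction of nandrolone and day. Without that array these shares were 0%, 0%, 0.542%, 10.9% and 0%, in the same order. The untested Kdr probe set had deposited signals of 0.9 to 27. For the probe set that represents each gene, the one with the highest mean signal, the range between the highest and lowest of the 4 group means was 1.24-fold for Esam to 2.53-fold for Vwf.

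**Figure D1:**
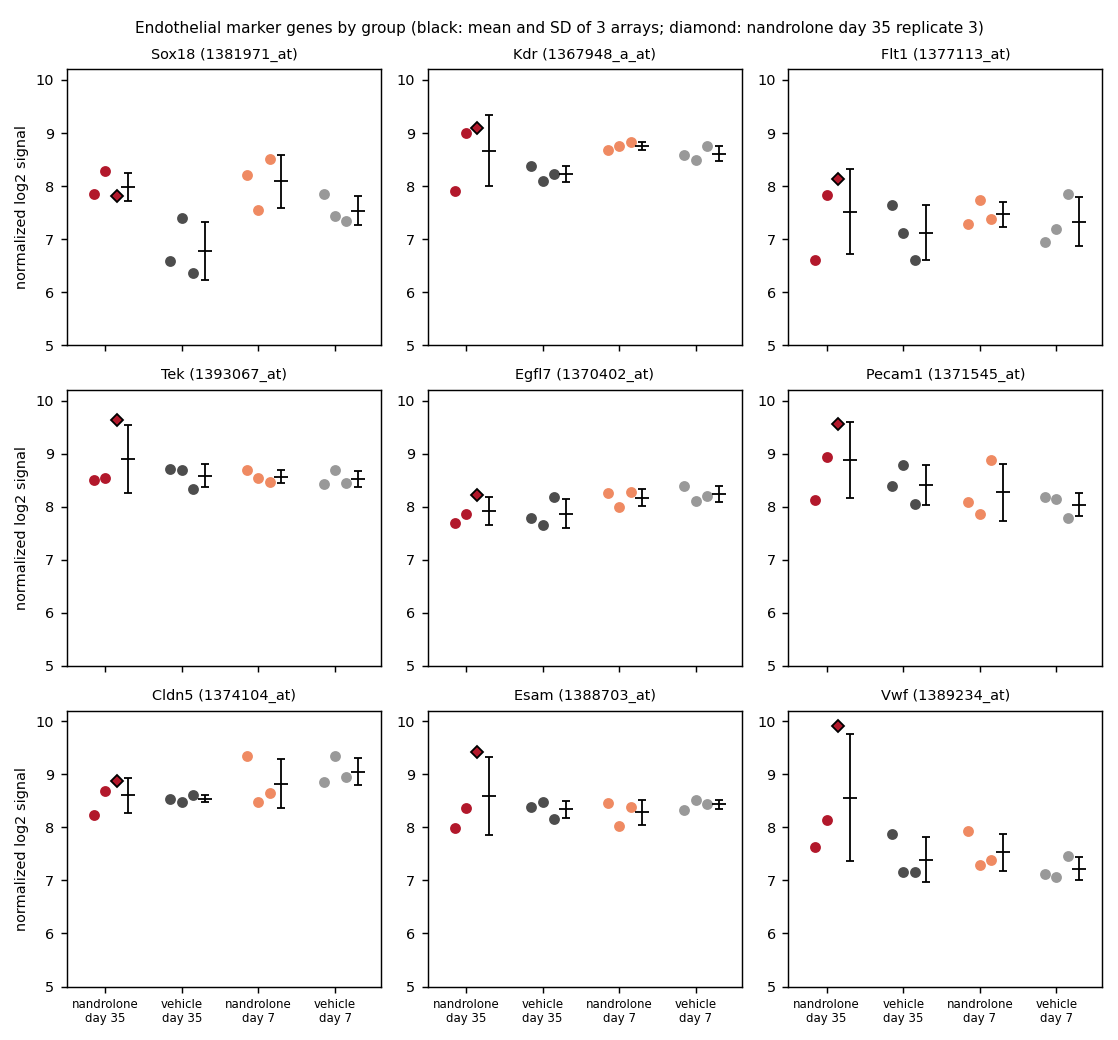
Normalized log2 signal (vertical axis) of the representative probe set of each of the 9 measured genes in the 12 arrays, by group (horizontal axis). Points are arrays, black marks the mean and SD of 3 arrays, and diamonds mark nandrolone day 35 replicate 3. The 3 nandrolone arrays at day 35 lie above the 3 vehicle arrays for Sox18, and the diamond is the highest point for 6 of the 9 genes, Vwf, Tek and Esam among them.

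Sox18, a transcription factor of the SOXF group needed for blood and lymphatic vessel development, had the largest difference between nandrolone and vehicle at day 35 among the members. Its levels were 7.85, 8.29 and 7.81 in nandrolone day 35 arrays, against 6.58, 7.39 and 6.35 in vehicle day 35 arrays. The 3 nandrolone arrays were all above the 3 vehicle arrays. The difference was 1.21 (95% interval 0.55 to 1.87, 2.31-fold), with an adjusted p = 0.562 in limma. It was 1.30 without nandrolone day 35 replicate 3 (adjusted p = 0.570), so it was as large without that array. With arrays weighted by quality it was 1.48 and was called (adjusted p = 0.0443 in limma), the 1 setting that did so. With those weights 49 of all tested probe sets were called in this comparison, beside 0 without them.

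At day 7, Sox18 stood at 8.22, 7.54 and 8.52 in nandrolone arrays, against 7.85, 7.43 and 7.34 in vehicle arrays. The groups overlapped, and the difference was 0.55 (95% interval -0.10 to 1.21, adjusted p = 1). Under vehicle the day 35 level was 0.76 below day 7 (95% interval -1.42 to -0.11, adjusted p = 0.153), a comparison that shares the vehicle day 35 arrays with the one above. Under nandrolone the difference between day 35 and day 7 was -0.11 (95% interval -0.77 to 0.55), and the interaction of nandrolone and day was 0.65 (95% interval -0.28 to 1.58, adjusted p = 0.929). Without nandrolone day 35 replicate 3 these were -0.025 and 0.74. From high to low, the group means were 8.09 ± 0.50 in nandrolone day 7, 7.98 ± 0.26 in nandrolone day 35, 7.54 ± 0.27 in vehicle day 7 and 6.78 ± 0.55 in vehicle day 35 (SD, n = 3 each). Neighbours in this order overlapped in all 3 pairs, and vehicle day 35 replicates 1 and 3 were the lowest 2 arrays.

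The other SOXF genes on the list of further endothelial genes, named here after their values were seen, are Sox7 and Sox17. Sox7 differed by 0.62 between nandrolone and vehicle at day 35 (adjusted p = 0.562), and by 0.59 without nandrolone day 35 replicate 3. Sox17 differed by 0.46 (adjusted p = 0.605), and by 0.11 without that array. Neither passed the test.

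Kdr and Flt1 encode the main receptors of vascular endothelial growth factor (VEGF): Kdr carries most of the growth signal, and Flt1 binds the factor tightly and can act as a decoy. Across arrays they were the most alike pair of members once nandrolone day 35 replicate 3 was left out, so their promoter sequences are shown. The Pearson correlation of the 2 representative probe sets was 0.81 over 12 arrays and 0.75 over 11. RefSeq promoter windows, from 250 bases before to 50 after the start of the gene in the GRCr8 assembly, were held for 4 of the 10 members, in 5 windows. The windows were searched on both strands for GGAA, the core of ETS factor sites (TTCC on the other strand), and for AACAAT, a core of SOX factor sites; capitals mark GGAA or TTCC.
Kdr promoter, chr14:32571813-32572112, + strand: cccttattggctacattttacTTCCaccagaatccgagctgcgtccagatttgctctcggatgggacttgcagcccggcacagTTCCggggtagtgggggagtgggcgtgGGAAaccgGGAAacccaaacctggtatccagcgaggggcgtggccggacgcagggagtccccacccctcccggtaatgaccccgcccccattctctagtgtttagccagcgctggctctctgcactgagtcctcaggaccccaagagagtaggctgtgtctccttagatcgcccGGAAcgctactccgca
Flt1 promoter, chr12:12333180-12333479, + strand: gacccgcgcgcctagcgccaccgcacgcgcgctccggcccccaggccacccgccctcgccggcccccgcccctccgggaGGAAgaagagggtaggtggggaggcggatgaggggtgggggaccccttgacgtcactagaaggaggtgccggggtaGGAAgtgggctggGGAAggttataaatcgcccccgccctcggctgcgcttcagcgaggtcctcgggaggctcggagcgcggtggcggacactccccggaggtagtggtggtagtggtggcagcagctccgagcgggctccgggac
The Kdr window held 5 GGAA matches and the Flt1 window 3, while the 2 Egfl7 windows held 4 and 2 and the Cldn5 window 1. GGAA stood in 95.8% of 33469 rat promoter windows of this length, so its presence does not set these genes apart. AACAAT stood in 11.7% of the windows and in 0 of the 5 member windows. These are letter matches and say nothing of binding.

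Kdr probe set 1367948_a_at had levels of 7.91, 9.01 and 9.10 in nandrolone day 35 arrays, against 8.37, 8.09 and 8.23 in vehicle day 35 arrays. The groups overlapped, and nandrolone replicate 1 was the lowest of the 12 arrays, while replicates 2 and 3 were the highest 2. The difference was 0.44 (95% interval -0.13 to 1.01, adjusted p = 0.582), and 0.23 without replicate 3. Without nandrolone day 35 replicate 1 it was 0.82, at adjusted p = 0.111.

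At day 7, Kdr was tightly grouped, at 8.68, 8.76 and 8.83 in nandrolone arrays, against 8.59, 8.49 and 8.76 in vehicle arrays. The groups overlapped, with a difference of 0.14 (95% interval -0.43 to 0.71). Under vehicle, the 3 day 35 arrays all lay below the 3 day 7 arrays, by 0.39 on average (95% interval -0.96 to 0.18, adjusted p = 0.410), and under nandrolone the difference was -0.083, or -0.30 without day 35 replicate 3. The other Kdr probe set, 1397868_at, which lay near the bottom of the scale, had a correlation of -0.19 with it over 12 arrays.

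Flt1 had 3 tested probe sets, whose differences at day 35 did not share a sign. Probe set 1377113_at had levels of 6.60, 7.83 and 8.13 in nandrolone day 35 arrays, against 7.64, 7.12 and 6.61 in vehicle day 35 arrays. The groups overlapped. The difference was 0.40 (95% interval -0.43 to 1.22), and 0.094 without nandrolone day 35 replicate 3. In the same comparison probe set 1370492_a_at gave -0.30 (95% interval -0.83 to 0.23) and 1369087_at gave 0.47 (95% interval -0.15 to 1.10). Without that array they gave -0.46 and 0.41. Over 12 arrays the 3 probe sets correlated with each other at 0.29 to 0.59.

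Flt1 1370492_a_at was the 1 member probe set with an unadjusted p under 0.05 for nandrolone against vehicle at day 7. It stood at 5.88, 5.82 and 5.95 in nandrolone day 7 arrays, against 6.17, 6.69 and 6.52 in vehicle day 7 arrays. The 3 nandrolone arrays all lay below the 3 vehicle arrays, by 0.58 (95% interval -1.11 to -0.047, adjusted p = 1). Neither of the other Flt1 probe sets showed this, at 0.14 for 1377113_at and -0.23 for 1369087_at. Under vehicle, 1370492_a_at was 0.59 lower at day 35 than at day 7 and 1369087_at 0.71 lower, with adjusted p of 0.169 and 0.159, while 1377113_at was 0.20 lower. Under nandrolone the differences were -0.31 for 1370492_a_at, -0.0055 for 1369087_at and 0.050 for 1377113_at. Without day 35 replicate 3 they were -0.47, -0.062 and -0.25 for the same probe sets.

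Tek, the angiopoietin receptor that keeps vessels stable, varied little outside nandrolone day 35 replicate 3. It stood at 8.51, 8.54 and 9.63 in nandrolone day 35 arrays, against 8.72, 8.69 and 8.33 in vehicle day 35 arrays. Replicate 3 was 0.92 above the next highest of all 12 arrays, and without it the nandrolone and vehicle arrays at day 35 differed by -0.055 (95% interval -0.44 to 0.34), against 0.32 with it. The day 7 levels were 8.70, 8.55 and 8.46 in nandrolone arrays, against 8.43, 8.69 and 8.45 in vehicle arrays. All 6 lay within the range of the vehicle day 35 arrays, and the difference between day 35 and day 7 was 0.33 under nandrolone (-0.042 without replicate 3) and 0.057 under vehicle.

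Egfl7 encodes a factor that endothelial cells secrete into the vessel wall matrix. Probe set 1370402_at stood at 7.69, 7.86 and 8.21 in nandrolone day 35 arrays, against 7.78, 7.66 and 8.17 in vehicle day 35 arrays. The groups overlapped, with a difference of 0.048 (95% interval -0.38 to 0.48), or -0.099 without nandrolone day 35 replicate 3. Its levels at day 7 were 8.25, 8.00 and 8.27 in nandrolone arrays, against 8.40, 8.11 and 8.20 in vehicle arrays, and the differences between day 35 and day 7 were -0.25 under nandrolone (-0.40 without day 35 replicate 3) and -0.37 under vehicle. The second probe set, 1393427_s_at, gave -0.078 under nandrolone (0.11 without day 35 replicate 3) and -0.40 under vehicle. For nandrolone against vehicle at day 35 it gave 0.12, or 0.31 without replicate 3, and its correlation with the first was 0.11 over 12 arrays.

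Pecam1, an adhesion protein at the borders of endothelial cells that platelets and macrophages also carry, stood at 8.14, 8.95 and 9.56 in nandrolone day 35 arrays, against 8.39, 8.79 and 8.05 in vehicle day 35 arrays. The nandrolone arrays spanned the vehicle arrays, and the difference was 0.47 (95% interval -0.28 to 1.23), or 0.13 without nandrolone day 35 replicate 3. At day 7 its levels were 8.08, 7.86 and 8.88 in nandrolone arrays, against 8.19, 8.15 and 7.78 in vehicle arrays, with nandrolone replicate 3 the highest of the day 7 arrays. The difference between day 35 and day 7 was 0.61 under nandrolone (0.27 without day 35 replicate 3) and 0.37 under vehicle. In nandrolone day 7 replicate 3 the median centred log2 signal of the macrophage list, which holds 12 measured genes, was 1.43, the highest of the 12 arrays. The part of macrophages in the Pecam1 signal was not tested.

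Cldn5, a claudin of endothelial tight junctions, stood at 8.23, 8.69 and 8.88 in nandrolone day 35 arrays, against 8.53, 8.48 and 8.61 in vehicle day 35 arrays. The groups overlapped, with a difference of 0.058 (95% interval -0.47 to 0.58), or -0.083 without nandrolone day 35 replicate 3. Its levels at day 7 were 9.35, 8.48 and 8.64 in nandrolone arrays, against 8.86, 9.34 and 8.95 in vehicle arrays. Under vehicle, the 3 day 35 arrays were all below the 3 day 7 arrays, by 0.51 on average (95% interval -1.03 to 0.021, adjusted p = 0.231). Under nandrolone the difference was -0.22, or -0.37 without day 35 replicate 3, and the groups overlapped.

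Esam, an adhesion molecule at endothelial tight junctions, stood at 7.99, 8.36 and 9.42 in nandrolone day 35 arrays, against 8.38, 8.47 and 8.16 in vehicle day 35 arrays. Nandrolone replicate 1 was the lowest and replicate 3 the highest of the 12 arrays. The difference was 0.25 (95% interval -0.38 to 0.88) with replicate 3 and -0.17 without it. At day 7 the difference was -0.15, with levels of 8.45, 8.02 and 8.37 in nandrolone arrays, against 8.33, 8.51 and 8.44 in vehicle arrays. The difference between day 35 and day 7 was 0.31 under nandrolone (-0.11 without day 35 replicate 3) and -0.092 under vehicle.

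Vwf, the carrier of clotting factor VIII stored in endothelial cells and in platelets, stood at 7.63, 8.14 and 9.90 in nandrolone day 35 arrays, against 7.87, 7.15 and 7.16 in vehicle day 35 arrays. The groups overlapped, and replicate 3 was 1.76 above the next highest of the 12 arrays. The difference was 1.17 (95% interval 0.19 to 2.15, adjusted p = 0.562) and 0.50 without replicate 3. Its levels at day 7 were 7.93, 7.29 and 7.38 in nandrolone arrays, against 7.12, 7.07 and 7.47 in vehicle arrays. Under nandrolone the day 35 mean was 1.03 above day 7 (adjusted p = 0.323) and 0.36 above it without replicate 3, and under vehicle the difference was 0.17. The platelet list, of which 2 of 5 measured genes were tested, had a centred score of -0.23 in nandrolone day 35 replicate 3. Pf4, a platelet chemokine and the brightest gene of that list, stood at 8.62 in the same array, against 7.61 to 7.72 in the vehicle day 35 arrays. Treml1, a platelet receptor, stood at 5.63 there, against 5.89 to 6.28 in the vehicle day 35 arrays. The part of platelets in the Vwf signal was not tested. Cdh5, the cadherin of endothelial junctions, was not analysed here.

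**Figure D2:**
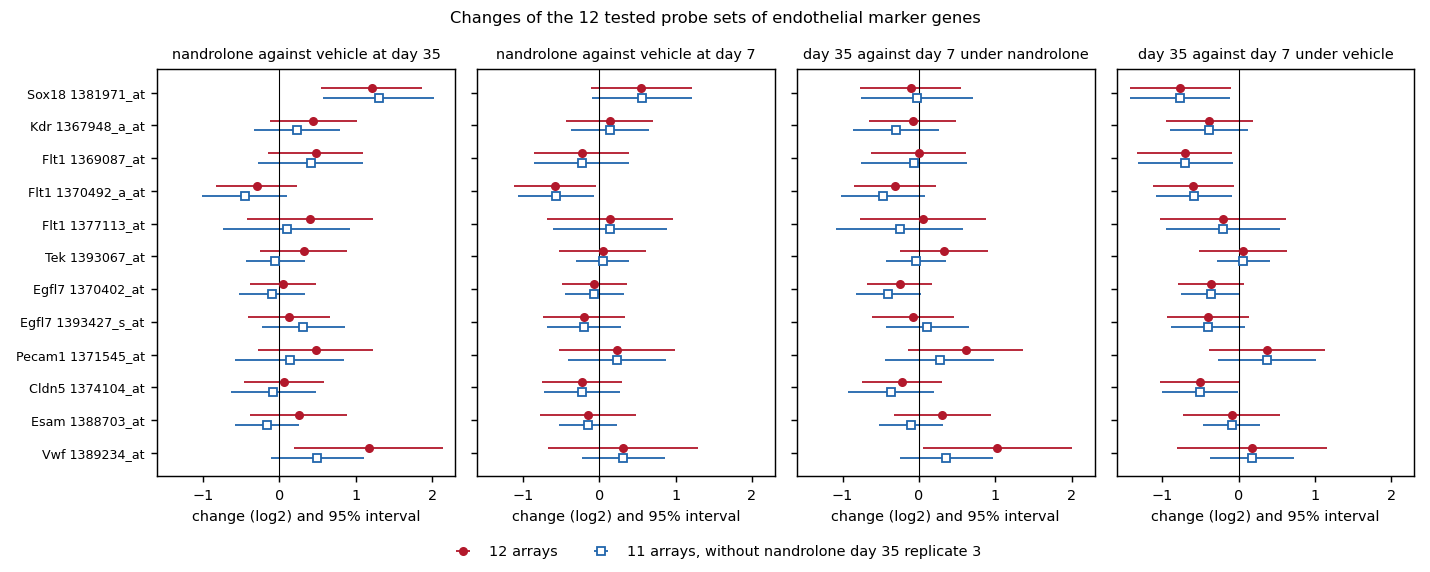
Change of each of the 12 tested probe sets (rows) in log2 units with its 95% interval (horizontal axis), in 4 comparisons (panels). Red points use 12 arrays and blue squares the 11 arrays without nandrolone day 35 replicate 3. For nandrolone against vehicle at day 35, Sox18 keeps its interval above 0 in both, while the Vwf change is 1.17 with that array and 0.50 without it.

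The size of the members' differences at day 35 depended on nandrolone day 35 replicates 1 and 3. The median difference between nandrolone and vehicle at day 35 was 0.40, with 9 of 9 genes above 0 (7 of 9 with median centring), beside -0.038 for all tested probe sets. Without that array the median was 0.094, with 5 of 9 genes above 0, and without nandrolone day 35 replicate 1 it was 0.82. In replicate 3 all 9 genes were above their own mean over the 12 arrays, and 6 of them were at their highest. Replicate 1 lay at the other end, with 4 of the 9 genes at their lowest of the 12 arrays. The array score, the median of the gene-centred levels of the 9 genes, was -0.36, 0.44 and 0.77 in the nandrolone day 35 arrays, against -0.033, -0.24 and -0.34 in the vehicle day 35 arrays, and the groups overlapped.

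At day 7 the median difference between nandrolone and vehicle was 0.14, with 6 of 9 genes above 0 (8 of 9 on the deposited scale), beside -0.0025 for all tested probe sets. For day 35 against day 7, the median was 0.050 under nandrolone and -0.11 without nandrolone day 35 replicate 3, beside -0.0096 for all tested probe sets with 12 arrays. Under vehicle it was -0.20, with 6 of 9 genes below 0, beside -0.0045 for all tested probe sets. The interaction median was 0.28, with 9 of 9 genes above 0 (8 of 9 with median centring), and -0.015 without that array, with 4 of 9 above 0, beside -0.027 for all tested probe sets with 12 arrays. These medians take 1 probe set per gene. Over all 13 member probe sets the median was 0.32 for nandrolone against vehicle at day 35, with 11 above 0, and -0.00038 at day 7, with 6 above 0. For day 35 against day 7 it was -0.031 under nandrolone, with 5 above 0, and -0.37 under vehicle, with 4 above 0, and for the interaction it was 0.28, with 12 above 0. The sign thus turned at day 7 and under nandrolone.

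An unadjusted p under 0.05 in limma was met by 2 of the 12 tested member probe sets for nandrolone against vehicle at day 35 (Sox18 and Vwf), beside 8.54% of all tested probe sets. It was met by 1 of 12 at day 7, beside 1.78%, and by 1 of 12 for day 35 against day 7 under nandrolone (Vwf), beside 14.5%. Under vehicle it was met by 3 of 12, beside 23.3%, and for the interaction by 0 of 12, beside 4%. Groups did not overlap, with nandrolone higher, for 1 of 12 probe sets at day 35 beside 4.33% of all, and with nandrolone lower for 0 of 12 beside 7.31%. At day 7 those counts were 0 of 12 higher beside 3.9%, and 1 of 12 lower beside 3.75%. For day 35 against day 7 they were 0 of 12 higher and 0 of 12 lower under nandrolone, beside 7.28% and 9.2%, and 0 of 12 higher and 3 of 12 lower under vehicle, beside 18.5% and 16.7%. The comparisons of day 35 share arrays with those of treatment, so they are not separate evidence.

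**Figure D3:**
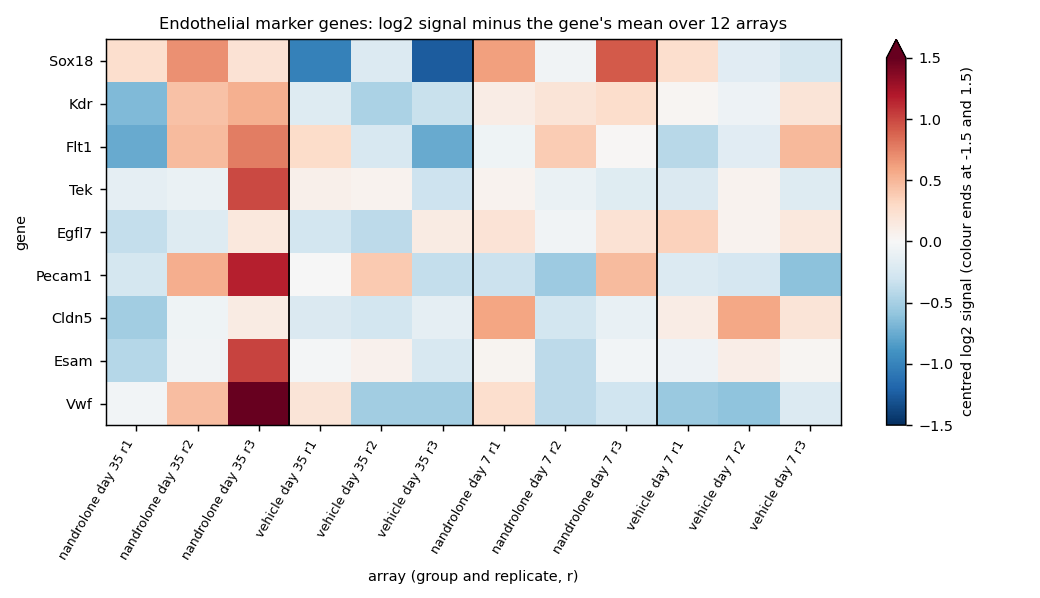
Log2 signal of each of the 9 measured genes (rows) in each array (columns, by group) minus the mean of the gene over the 12 arrays, with red above and blue below that mean. Nandrolone day 35 replicate 3 is above the mean for all 9 genes, and nandrolone day 35 replicate 1 is above it for 1 of 9.

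Pairs of members followed each other across arrays less closely without nandrolone day 35 replicate 3. Over 12 arrays the median correlation of the 36 gene pairs was 0.40, with 14 pairs above 0.5. Over the 11 arrays without it the median was 0.25, with 4 pairs above 0.5. Tek and Vwf, at 0.88 over 12 arrays, were at 0.29 over 11, and Tek and Esam were at 0.90 and 0.45. Kdr and Flt1 (0.81 and 0.75), Egfl7 and Cldn5 (0.63 and 0.62) and Kdr and Egfl7 (0.54 and 0.52) were above 0.5 over both sets of arrays, and Esam and Cldn5 (0.42 and 0.67) over the 11 arrays alone. Sox18 stayed below 0.5 with every other member over either set of arrays. These arrays share groups and normalization.

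The other genes whose pattern was most like the array score, of 10413 tested non-member genes, were Ppp1r36, a regulatory subunit of protein phosphatase, Dbi, an acyl-CoA binding protein, Pdlim1, a PDZ and LIM protein, Anxa3, an annexin, Tmem88, a transmembrane protein, and Dock9, an activator of the GTPase Cdc42. Ppp1r36 correlated with it at 0.98 over 12 arrays and 0.95 over 11, and Dbi at 0.92 and 0.95. For Pdlim1 the values were 0.86 and 0.87, for Anxa3 0.93 and 0.85, for Tmem88 0.93 and 0.83, and for Dock9 0.92 and 0.82.

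The list of further endothelial genes, of which 30 were measured and tested, is set beside the members. At day 35 its median difference between nandrolone and vehicle was 0.42, with 29 of 30 genes above 0, and 0.047 without nandrolone day 35 replicate 3. Its summed signals on the normalized scale were 8607 to 25139 in nandrolone day 35 arrays, against 9647 to 10578 in vehicle day 35 arrays. The highest nandrolone day 35 sum was 12539 without replicate 3. Cav1, the coat protein of caveolae and the brightest gene of the list, had deposited signals of 1730 to 6257 in nandrolone day 35 arrays, against 2149 to 2606 in vehicle day 35 arrays. Its log2 difference was 0.41 with replicate 3 and 0.048 without it. With limma 0 of the 30 were called in any comparison. An unadjusted p under 0.05 was met by 3 at day 35 for nandrolone against vehicle, beside 8.54% of all tested probe sets. At day 7 it was met by 2, beside 1.78%. For day 35 against day 7 it was met by 3 under nandrolone, beside 14.5%, and by 3 under vehicle, beside 23.3%. For the interaction it was met by 2, beside 4%.

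The pathway list of VEGF and angiopoietin genes had 14 measured genes, of which 12 were tested. With limma 0 were called with 12 arrays. An unadjusted p under 0.05 was met by 2 for nandrolone against vehicle at day 35, beside 8.54% of all tested probe sets, and by 0 at day 7, beside 1.78%. For day 35 against day 7 it was met by 2 under nandrolone, beside 14.5%, and by 1 under vehicle, beside 23.3%. For the interaction it was met by 1, beside 4%. Its median difference between nandrolone and vehicle at day 35 was 0.39, and 0.15 without nandrolone day 35 replicate 3. In that comparison Apln, a peptide released by growing vessels, differed by -0.78 and Thbs2, an inhibitor of vessel growth, by 0.76 (both adjusted p = 0.562), the 2 with an unadjusted p under 0.05. Without replicate 3 they differed by -0.60 and 0.54. Vegfa, the growth factor that Kdr and Flt1 bind, differed by 0.56 (adjusted p = 0.647), or 0.63 without replicate 3. Hif1a, its oxygen-responsive regulator, differed by 0.53 (adjusted p = 0.571), or 0.16 without replicate 3. Apln differed by 1.14 between day 35 and day 7 under vehicle (adjusted p = 0.0706 in limma). Without nandrolone day 35 replicate 3, an array of neither vehicle group, it was called (adjusted p = 0.0431), as were 10.9% of all tested probe sets. Under nandrolone its difference was 1.03 (adjusted p = 0.199), or 1.21 without day 35 replicate 3. The lists of arterial and venous genes (9 tested) and of lymphatic genes (5 tested) had day 35 medians for nandrolone against vehicle of 0.34 and 0.81, and of 0.16 and 0.32 without replicate 3. At day 35, 2 of the 9 and 3 of the 5 had an unadjusted p under 0.05 in limma, beside 8.54% of all tested probe sets, and 0 were called. Of the measured genes, 8 of 10 and 4 of 6 were above 0. The lymphatic genes below 0 were Prox1 (-0.36) and the untested Flt4 (-0.55).

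Markers of several other cell types were also high in nandrolone day 35 replicate 3. The centred score in that array was 3.64 for Schwann cells, 3.50 for adipocytes, 1.12 for fibroblasts, 1.03 for smooth muscle and pericytes and 0.41 for macrophages, against 0.77 for the endothelial members. For macrophages the score was higher in nandrolone day 7 replicate 3, at 1.43, and in vehicle day 7 replicate 3, at 0.48. In nandrolone day 35 replicate 3 the score was 0.057 for erythrocytes, -0.067 for skeletal fibres and -0.23 for platelets. These median scores were not high. Among the day 35 arrays, however, the summed erythrocyte and platelet signals given below were highest in that array. Summed smooth muscle and pericyte signals, over 12 genes, were 3893 to 14349 in nandrolone day 35 arrays, against 4200 to 4878 in vehicle day 35 arrays. Over 7 adipocyte genes they were 1936 to 14385 in nandrolone arrays, against 1342 to 2946 in vehicle arrays, and over 5 Schwann genes 3669 to 15128 in nandrolone arrays, against 3396 to 4795 in vehicle arrays. Over 12 macrophage genes they were 2515 to 6066 in nandrolone arrays, against 2097 to 2678 in vehicle arrays, and over 8 fibroblast genes 23180 to 48906 in nandrolone arrays, against 16695 to 24326 in vehicle arrays. Over 4 erythrocyte genes they were 1909 to 7587 in nandrolone arrays, against 1399 to 2852 in vehicle arrays, and over 5 platelet genes 295 to 438 in nandrolone arrays, against 287 to 321 in vehicle arrays. Skeletal fibre genes summed to 135684 to 147054 in nandrolone arrays, against 145189 to 147985 in vehicle arrays. Without replicate 3 the highest nandrolone day 35 sums were 5111 for smooth muscle and pericytes, 2357 for adipocytes and 4560 for Schwann cells. They were 3215 for macrophages, 23619 for fibroblasts, 3643 for erythrocytes and 359 for platelets. The part of these cells in the endothelial levels was not tested.

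**Figure D4:**
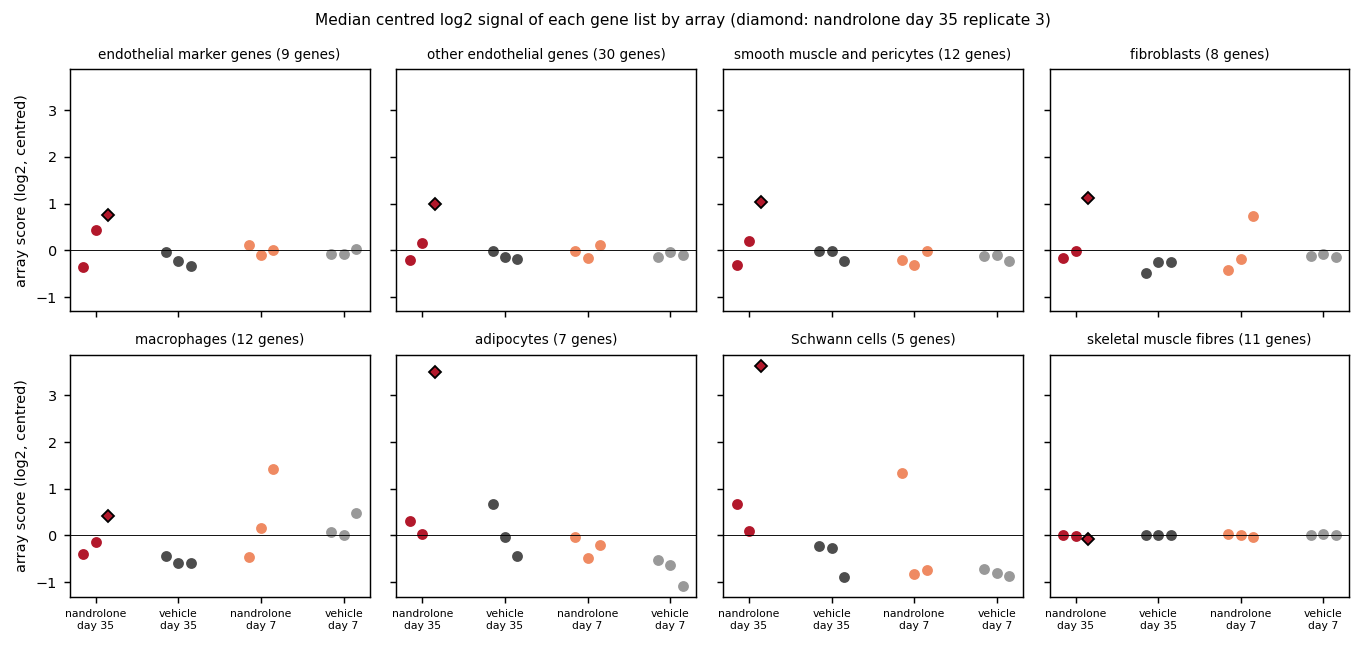
Array score (vertical axis, log2, centred on the gene means) of the members and of 7 other gene lists, by group (horizontal axis). Points are arrays and the diamond is nandrolone day 35 replicate 3, which scores 0.77 for the members, 3.50 for adipocytes and 3.64 for Schwann cells.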

How the data were processed

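Total RNA of 12 samples was hybridised to 1-colour Affymetrix arrays. The deposited values are signal intensities per probe set on a linear scale, made with MAS5 per the submitters' processing notes; its version is not given in the sources used here. A second deposited table has 12 columns named only by number, which were not used.

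Of 31099 probe sets, 57 controls were left out. Then 16 was added, log2 taken and the arrays quantile normalized. The dimmest 40% by mean signal were not tested. The annotation gives 1 gene to 20826 probe sets, several to 436 and none to 9780; 20758 of the first had an ID in the RefSeq table. limma 3.58.1 in R 4.3.3 fitted 4 group means with an intensity trend and 8 residual degrees of freedom, with two-sided tests. The number of arrays limits the precision. The code was tested on simulated data.

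All members were named; from the other lists, called genes and the 3 brightest of each cell type, and the 6 genes most like the array score. Other genes named, such as Vegfa, Hif1a, Apln, Thbs2, Sox7 and Sox17, were chosen after their values were seen. Members and lists were chosen with earlier results of these data known. The labels do not pair samples across groups. The correlation of same-numbered arrays' deviations was over 0.1 in all 3 pairs between the nandrolone groups (0.16, 0.26 and 0.42). A fit with the replicate number as a block was therefore added, though these values do not show that the numbers pair samples. At day 7 it was 0.15, 0.082 and 0.11, and in the other comparisons -0.023 to 0.11. Alternatives were the pseudocount, filter, scaling, trend, array weights, threshold, samples fitted, replicate block and leaving out each array.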

Additional observations from a re-analysis of the deposited data

How the results depend on the processing

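No member call was made under the alternatives tried, except with array quality weights, where Sox18 was called for nandrolone against vehicle at day 35 (1 probe set, 1.48, adjusted p = 0.0443). Under vehicle, 4 were called with those weights for day 35 against day 7: Sox18 (-0.85), Flt1 1369087_at (-0.73), Egfl7 1370402_at (-0.42) and Cldn5 (-0.50), at adjusted p of 0.0159 to 0.0413. The weights ran from 0.209 for nandrolone day 35 replicate 3 to 3.32 for vehicle day 35 replicate 1, and 5274 of all probe sets were then called under vehicle, beside 1045. Over all alternatives the adjusted p of Sox18 at day 35 ran from 0.0443 to 0.800. The cause was not tested.

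The median change of the members for nandrolone against vehicle at day 35 was 0.71 on the deposited scale, where all tested probe sets had a median of 0.26, a difference of 0.45, against 0.43 after quantile normalization. With median centring 7 of the 9 genes were above 0. Leaving out 1 array gave 0.094 to 0.82 for that median, -0.11 to 0.51 for day 35 against day 7 under nandrolone and -0.015 to 0.68 for the interaction; the low ends were without nandrolone day 35 replicate 3 and the high ends without replicate 1. They were 0.018 to 0.14 at day 7 and -0.32 to -0.0057 under vehicle. Other settings gave -0.00038 to 0.29 at day 7, 0.14 to 0.71 at day 35, -0.37 to -0.069 under vehicle, -0.031 to 0.29 under nandrolone and 0.15 to 0.41 for the interaction; both negative ends at day 7 and under nandrolone came with all 13 probe sets. Of 1482 single probe set values, 31 moved beyond the spread between replicates and 68 changed sign, none of them called.

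With the replicate number as a block, 0 member probe sets were called in each comparison, and the smallest adjusted p was 0.107, under vehicle. Under nandrolone it was 0.293, and 128 of all probe sets were called, against 126 without the block. Counts over all probe sets ran from 178 to 5274 under vehicle, 0 to 293 under nandrolone, 0 to 49 for nandrolone against vehicle at day 35 and 0 to 1 at day 7. The fit of only the groups compared needs 2 groups, so it gave no interaction.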

Other observations

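Among markers of cells other than the endothelium, genes were called with all arrays only for day 35 against day 7. Under vehicle these were 1 of 4 tested Schwann genes, 1 of 3 erythrocyte genes and 1 of 11 skeletal fibre genes. No smooth muscle, pericyte, adipocyte, macrophage, fibroblast or platelet gene was called. Of all tested probe sets, 5.61% were called under vehicle. Under nandrolone 1 of 4 Schwann genes was called, beside 0.676% of all tested probe sets. Whether these markers differ from that background was not tested. Cnp, a myelin enzyme of Schwann cells, was 1.87 higher at day 35 than day 7 under nandrolone (adjusted p = 0.0217 in limma, and 1.53 higher without day 35 replicate 3) and 1.82 higher under vehicle (adjusted p = 0.00690). The rest of the Schwann list did not follow under vehicle: Pmp22 differed by 0.29, S100b by 0.25, Mbp by -0.088 and the untested Sox10 by -0.042. Under nandrolone these genes differed by 0.84, 1.19, 1.90 and 1.25. Without day 35 replicate 3 they differed by 0.48, -0.19, 0.64 and 0.00090. Under vehicle, Alas2, the heme synthesis enzyme of red cell precursors, fell by 1.35 (adjusted p = 0.0176 in limma). Of the other erythrocyte genes, Hbb differed by -1.26 and was called only without nandrolone day 35 replicate 3. Slc4a1 differed by -0.057 and the untested Epb42 by 0.061. Myh1, a fast myosin heavy chain, fell by 1.11 under vehicle (adjusted p = 0.00517 in limma). Its list did not follow: 7 of the 11 skeletal fibre genes were above 0, and their median was 0.042. Under nandrolone the differences were -0.43 for Alas2 and -0.50 for Myh1, and neither passed the test.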
